A study of Homo sapiens with 4 samples.

Results

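Of the 18789 N6-methyladenosine (m6A) sites predicted in C643 cells, 2889 lay in the coding sequence (CDS) of a last exon, which was 15.4% of the list (95% Wilson interval 14.9 to 15.9). A site belonged to this set when it was on the strand of, and in the CDS of, the Ensembl canonical transcript of a protein-coding gene with at least 2 exons, in the last exon and more than 100 nt after its first base. The sites fell in 1084 host genes and made up 39.1% (37.95 to 40.2) of the 7397 sites in the CDS of all 3686 spliced coding transcripts that held a site. A further 581 coding sites of last exons lay at most 100 nt after the first base and were left out by the rule. Of the 2889 sites, 2388 (82.7%, 81.2 to 84.0) were in no untranslated region of any annotated coding transcript, 30 qualified in more than 1 gene and were counted once, and 1 was in a transcript without an annotated stop codon. Chromosome 19 held 364 of them, chromosome 17 held 281 and chromosome 1 held 268, counts that were not set against those of the whole list. On the plus strand were 1517 of the 2889 sites, and 9709 of the 18789 in the whole list.

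The cells were untreated wild-type C643, an established human line that comes from a thyroid cancer of the anaplastic type, and poly(A)+ RNA was profiled by miCLIP2. In this assay ultraviolet light links fragments of RNA to an antibody against m6A, and reverse transcription stops at the linked nucleotide. There was 1 group with 3 biological replicates, of which replicate 1 had 2 technical libraries, and the authors pooled all replicates into 1 list of sites. The m6Aboost classifier gave each site a prediction score, a fraction between 0 and 1 that is a measure of confidence and not of how many transcripts carry the mark. The list holds no read counts, so intervals cover counting error or the spread between genes, never the spread between cultures, and a gene without a site cannot be told apart from a gene with too few reads.

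m6A is placed on nascent transcripts by a methyltransferase complex around METTL3 and METTL14, which prefers the DRACH pentamer (D is A, G or T, R is A or G, H is A, C or T) with the modified A in its centre. Exon junction complexes, left on the RNA a short way upstream of each splice junction, keep the methyltransferase away from nearby sequence, so that m6A is known mostly from long internal exons and from last exons. The last exon carries the end of the reading frame, the stop codon and usually the whole 3′ UTR, and m6A in transcripts is known to crowd around the stop codon. Coding sites can also meet elongating ribosomes.

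The most frequent pentamers among the coding sites of last exons were GGACT (555 sites), GGACA (435 sites), GGACC (374 sites), AGACT (257 sites) and GAACT (252 sites). For each, the site with the highest prediction score is shown with 20 nt on either side (GRCh38, 5′ to 3′ on the strand of the transcript, the pentamer with the site at its central A in capitals), since these windows show what the strongest predictions look like.
ASF1B, chr19:14120449-14120489, minus strand: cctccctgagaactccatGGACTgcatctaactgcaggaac
B4GALT2, chr1:43990391-43990431, plus strand: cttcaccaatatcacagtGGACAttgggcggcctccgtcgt
RHOG, chr11:3827766-3827806, minus strand: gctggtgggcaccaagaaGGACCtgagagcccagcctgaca
ZBTB48, chr1:6589102-6589142, plus strand: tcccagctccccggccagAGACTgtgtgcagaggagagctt
NHERF1, chr17:74768618-74768658, plus strand: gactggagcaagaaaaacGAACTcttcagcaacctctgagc
The ASF1B site, in the gene of a histone chaperone, scored 0.969 and lay 8 nt before the stop codon, so its window runs through the stop codon into the 3′ UTR. The NHERF1 site (0.970), in the gene of a membrane scaffold protein, lay 16 nt before the stop codon. The ZBTB48 site, in the gene of a telomere-binding zinc finger protein, lay 88 nt before the stop codon in exon 11 of 11 and had the highest score of the set (0.981). The sites in RHOG (0.955), which encodes a small GTPase, and B4GALT2 (0.939), which encodes a galactosyltransferase, lay 221 nt and 35 nt before the stop codon.

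Sites outside DRACH were led by GGACG (194 sites), GTACT (40 sites), GGATT (23 sites), GAACG (22 sites) and AGACG (17 sites, as many as CAACT). The highest-scoring site of each is shown in the same way, because most of them differ from a DRACH pentamer in the base at its end or in its second base.
CCNF, chr16:2456783-2456823, plus strand: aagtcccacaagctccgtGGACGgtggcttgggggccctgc
MYO9B, chr19:17212253-17212293, plus strand: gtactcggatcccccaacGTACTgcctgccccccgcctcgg
TAOK2, chr16:29986653-29986693, plus strand: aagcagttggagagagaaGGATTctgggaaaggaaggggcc
MOGS, chr2:74462884-74462924, minus strand: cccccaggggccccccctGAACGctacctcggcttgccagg
REPIN1, chr7:150371677-150371717, plus strand: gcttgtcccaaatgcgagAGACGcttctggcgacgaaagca
The CCNF site (0.910, in the gene of cyclin F) was the only one of these with a score above 0.9. The sites in MOGS (0.826, a glucosidase of glycoprotein processing), REPIN1 (0.793, a zinc finger protein), MYO9B (0.760, an unconventional myosin) and TAOK2 (0.706, a protein kinase) scored lower.

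Last-exon coding motifs were listed far more often than coding motifs in general. Of the 108642 DRACH motifs in the CDS of transcripts with a listed site, 6.06% were listed as sites. Among the 10450 of these motifs that lay in last exons more than 100 nt after the first base (the eligible motifs), 2531 were listed, which was 24.2% (23.4 to 25.1). In internal exons, coding motifs more than 100 nt from both exon ends were listed in 14.5% of cases (13.9 to 15.2; 1734 of 11945). Within genes that had motifs of both kinds, the odds of being listed were 1.79 times higher in the last exon (95% interval 1.54 to 2.08; Mantel-Haenszel odds ratio with genes as strata, two-sided p = 4.82e-14, adjusted p = 1.93e-13 over 8 odds ratios, n = 532 genes). The difference was also present where last-exon motifs within 200 nt of the stop codon were left out (odds ratio 2.17, 1.68 to 2.79, n = 175 genes). Among GGACT motifs alone it was 1.498 and did not pass (p = 0.191, n = 47 genes). The classifier also used whether any isoform places a site in the CDS or in an untranslated region. For motifs that are coding in every coding transcript that covers them, the odds ratio was 1.71 (1.44 to 2.02, n = 423 genes). It was 1.82 (1.53 to 2.15, n = 416 genes) in transcripts that held a listed site in neither of the compared classes.

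The rise in the share of listed motifs began before the limit of 100 nt. In last-exon CDS, 4.83% of motifs at 0 to 20 nt after the first base of the exon were listed, 5.30% at 21 to 40 nt, 8.58% at 41 to 60 nt, 13.8% at 61 to 80 nt and 15.1% at 81 to 100 nt. Just inside the limit, in the next 20 nt, 18.1% of 834 motifs were listed. The 158 sites just outside the limit, at 81 to 100 nt, had a median score of 0.724 and a median distance to the stop codon of 77.5 nt, and the 163 sites in the 20 nt inside it had 0.757 and 92 nt. Beyond that, the share was 20.1% at 121 to 140 nt and 26.9% at 141 to 160 nt, and between 161 and 1000 nt it stayed between 23.1% and 28.6%. Motifs more than 200 nt before the stop codon followed the same course, with 4.12% at 0 to 20 nt, 15% at 81 to 100 nt and 29.6% at 141 to 160 nt, as the plot along the last exon shows. Among those far from the stop codon, motifs up to 300 nt into the exon were listed in 24.5% of cases and motifs farther into the exon in 20.8%, but within genes the odds ratio was 0.851 (0.701 to 1.033; p = 0.104, adjusted p = 0.207, n = 289 genes), which did not pass the threshold. The pooled shares and the odds ratio within genes thus pointed in opposite directions. In host transcripts with a listed site outside last-exon CDS, the odds ratio was 0.767 (p = 0.0187 before adjustment, n = 209 genes).

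**Figure D1:**
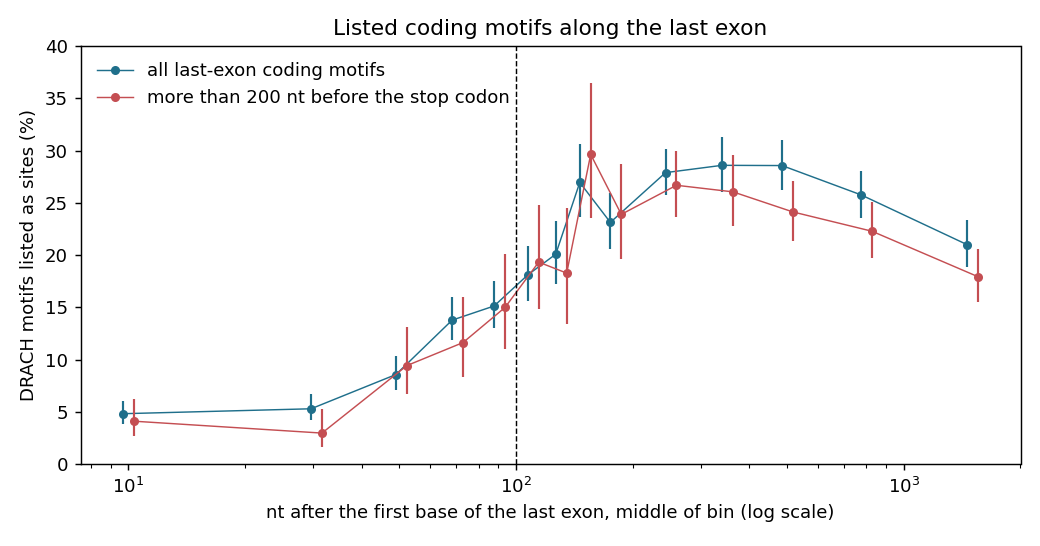
Share of last-exon coding DRACH motifs that were listed as sites (%, y axis) against distance from the first base of the last exon (nt, log scale, middle of each bin up to 2000 nt), for all motifs (blue) and for motifs more than 200 nt before the stop codon (red); bars are 95% Wilson intervals and the dashed line is the limit of 100 nt. The share of all motifs climbs from 4.83% in the first bin to 26.9% at 141 to 160 nt.

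Measured backwards from the stop codon, most sites lay in the last 1000 nt of the reading frame. The median distance from a site to the first nucleotide of the stop codon was 187.5 nt (173 to 204, n = 2888 sites), with quartiles of 59 and 480 nt and a range from 2 to 17107 nt. Within 50 nt lay 653 sites (22.6%), within 200 nt 1488 (51.5%, 49.7 to 53.3) and within 1000 nt 2623 (90.8%). Relative to the length of the CDS in the last exon, the median site lay at 68.1% of the way to the stop codon. These distances also reflect where the CDS of last exons is: 2112 eligible motifs lay within 50 nt of a stop codon, and 576 more than 2000 nt away.

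The share of eligible motifs that were listed was nearly flat over the last 500 nt of the CDS. It was 27.8% (587 of 2112) at 1 to 50 nt before the stop codon, 25.5% at 51 to 100 nt, 27.7% at 151 to 200 nt and 26.3% at 401 to 500 nt, with overlapping intervals. It was lower farther upstream, with 23.2% at 501 to 600 nt, 21.2% at 801 to 1000 nt, 18.5% at 1001 to 1500 nt and 15.1% at 1501 to 2000 nt. Beyond 2000 nt, 46 of 576 motifs in 23 genes were listed (7.99%), a value set by AHNAK: its 346 motifs there held 4 sites (1.16%), and without it the share was 18.3% (13.8 to 23.8, 22 genes). PLEC stood at the other end, with 17 of its 53 motifs listed beyond 2000 nt (32.1%, 21.1 to 45.5), and without PLEC the share fell to 5.54%. Within genes, motifs 1 to 200 nt before the stop codon had 1.30 times the odds of being listed of motifs farther upstream (1.13 to 1.502; p = 0.000366, adjusted p = 0.000976, n = 524 genes; 26.8% of 4910 against 21.9% of 5533). The odds ratio was 1.29 (n = 433 genes) for motifs that are coding in every coding transcript that covers them, and 1.30 without AHNAK and without PLEC alike. It changed with the minimum distance from the first base of the exon. With 50 nt it was 1.52 (1.33 to 1.74, n = 603 genes), and with 200 nt 1.18 (1.002 to 1.39; p = 0.0477 before adjustment, n = 407 genes). Among GGACT motifs alone it was 2.04 and did not pass (p = 0.0636, n = 28 genes). Within a last exon, motifs nearer to the stop codon are also farther from the splice junction. Closeness to the stop codon and distance from the junction therefore cannot be told apart in this comparison.

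The share of listed motifs was much the same just before and just after the stop codon, with overlapping intervals. Of the DRACH motifs in the first 200 nt of the 3′ UTR of last exons, 27% (26.2 to 27.8) were listed. In the last 200 nt of the CDS, 26.8% (25.6 to 28.1) were listed. Both sets had the same minimum distance from the first base of the exon, but they did not come from the same exons. Per bin of 50 nt, 470 to 1419 genes had motifs before the stop codon and 1960 to 2070 from it onwards. The odds ratio within genes was 0.949 (0.856 to 1.05; p = 0.324, adjusted p = 0.432, n = 1315 genes). This value depended on how far from the splice junction motifs had to be. With a minimum of 50 nt it was 0.773 (p = 1.88e-08 before adjustment, n = 1793 genes), and with a minimum of 200 nt it was 1.23 (p = 0.00369, n = 675 genes), with the higher share on the coding side. In transcripts with a listed site outside last-exon CDS it was 0.760 (p = 5.19e-07, n = 1186 genes). A listed 3′ UTR site meets this requirement, which favours the 3′ UTR side, so 0.760 cannot decide the comparison. For scores of at least 0.7 the odds ratio was 0.714 (p = 3.36e-09, n = 1174 genes). CDS and 3′ UTR were inputs of the classifier, so neither this value nor 0.949 is independent of it. Downstream, the share was 25.1% at 150 to 199 nt after the first nucleotide of the stop codon, 19.1% at 200 to 249 nt and 5.00% at 950 to 999 nt. On the coding side the share varied between 10.5% and 27.3% in the bins from 750 to 1000 nt, which held 114 to 142 motifs each, as the profile around the stop codon shows.

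**Figure D2:**
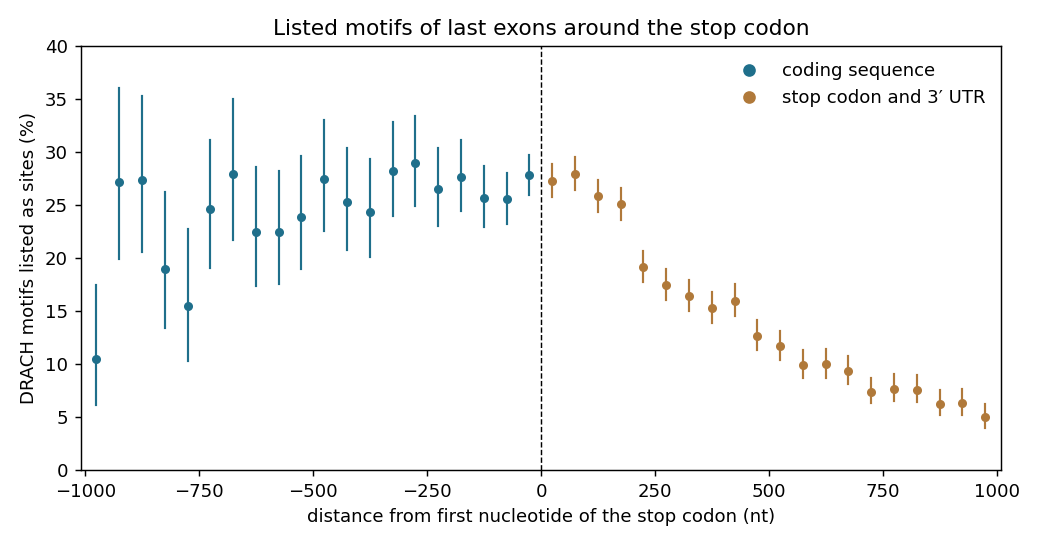
Share of last-exon DRACH motifs more than 100 nt after the first base of the exon that were listed (%, y axis), in bins of 50 nt by distance from the first nucleotide of the stop codon (x axis; negative values are coding); bars are 95% Wilson intervals. Coding bins (blue) stay between 22.4% and 28.97% over the last 750 nt, and bins of the stop codon and 3′ UTR (brown) fall from 27.3% to 5.00%.

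The sites nearest to the stop codon had the A of their pentamer 2 nt before it, so that the pentamer ended on the T of the stop codon. Of the 135 eligible motifs at this position 76 were listed (56.3%, 47.9 to 64.4), against 1261 of 2613 other eligible motifs that end in T (48.3%, 46.3 to 50.2), with overlapping intervals. Examples were PHF13 (score 0.859, chr1 position 6621633, exon 4 of 4, GGACT), which encodes a chromatin-binding PHD finger protein, PARK7 (0.818, chr1 position 7985050, exon 7 of 7, AGACT), which encodes the oxidative stress protein DJ-1, and PEX14 (0.652, chr1 position 10629983, exon 9 of 9, GGACT), a peroxisomal import factor. DRACH motifs whose A lay in the stop codon itself, and which are outside the CDS set, were listed in 60 of 595 cases (10.1%, 7.91 to 12.8). Per pentamer their listed shares were close to those of eligible coding motifs: TGACT in 30.9% of 97 cases against 31.3% of 480, and TGACC in 3.21% of 249 against 2.14% of 933. The stop codon motifs could lie in any exon and at any distance from its first base. The eligible motifs could not, so these sets are not matched.

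At the far end, 60 sites in 13 genes lay more than 2000 nt before the stop codon, and 26 of them were in PLEC. The farthest were in AHNAK, at 17107 nt (chr11 position 62533853, exon 5 of 5, GAACT, score 0.886) and 16835 nt (position 62533581, GGACA, 0.711), which were 221 nt and 493 nt into an exon with 17328 nt of CDS. AHNAK encodes a giant scaffold protein built largely of repeated units. Of its 380 eligible motifs 6 were listed (1.58%, 0.726 to 3.40). Only uniquely mapping reads were kept upstream, and the part of this in the low share of AHNAK was not tested.

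Host genes had long coding stretches in their last exon. The median length of last-exon CDS was 374 nt (357 to 400, quartiles 216 and 677) in the 1084 host genes, against 185 nt (180 to 190, quartiles 150 and 247) in the 829 genes that had an eligible motif and no site of the set. Of the 1892 genes with an eligible motif, 1063 held a listed one or another site of the set, which is 56.2%. Only genes whose transcript held a listed site were counted. In 193 host genes every listed site belonged to the set, so these genes entered through the outcome itself. This selection raises the share of 56.2% and the shares by length. The share of genes with a site was 30% for last-exon CDS of at most 200 nt, 50.4% for 201 to 300 nt, 74.8% for 301 to 500 nt, 87.7% for 501 to 1000 nt and 93.3% for 1001 to 2000 nt. Longer stretches hold more motifs: the median number of eligible motifs per gene rose from 1 in the shortest class to 17 at 1001 to 2000 nt. The share of motifs listed varied less, with 20.9%, 23.8%, 29.6%, 29.3% and 22.9% in the same classes. Above 2000 nt it was 14.3% (12.6 to 16.2) over 29 genes, and 18.9% (16.7 to 21.4) without AHNAK.

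**Figure D3:**
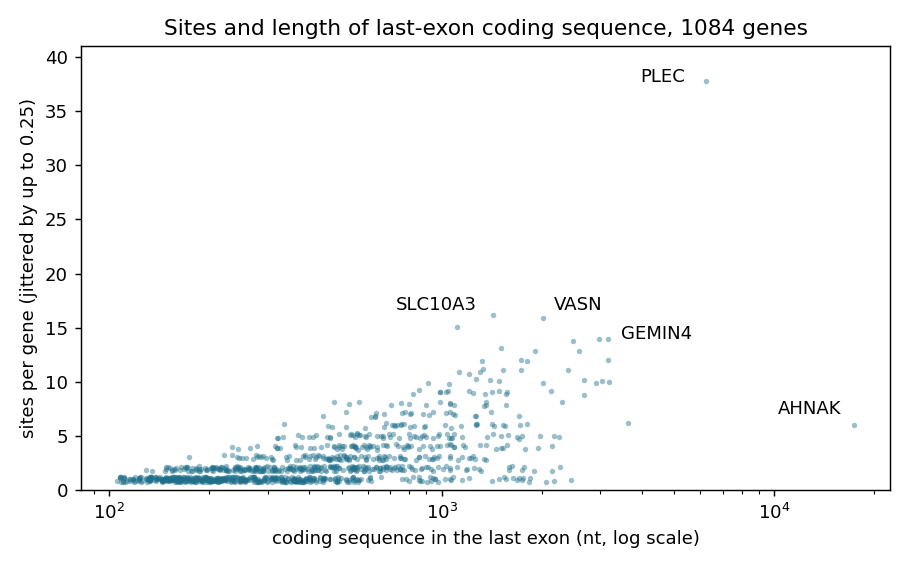
Number of sites per host gene (y axis, points jittered by up to 0.25) against the length of coding sequence in the last exon (nt, log scale), 1 point for each of 1084 genes. PLEC lies far above the other genes with 38 sites, and AHNAK has 6 sites in the longest coding stretch.

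GGACT was the pentamer of 555 sites (19.2%, 17.8 to 20.7) and was listed most often. Of the eligible GGACT motifs 63.2% (59.97 to 66.3) were listed, against 20.7% (19.9 to 21.5) of other DRACH motifs, an odds ratio within genes of 9.16 (7.43 to 11.3; p = 8.98e-95, adjusted p = 7.18e-94, n = 448 genes). GAACT followed with 56.1%, AGACT with 47.1%, GGACA with 40.3% (434 of 1078 motifs) and GGACC with 28.3% (374 of 1322). The lowest shares were those of TGACC with 2.14%, TAACA with 1.92%, AAACC with 1.031% and TAACC with 0.826%. Each of the 18 DRACH pentamers had a higher listed share here than in long internal exons, where GGACT stood at 47.2%, AGACT at 28.7% and GGACC at 16.7%, and for 11 of them the intervals did not overlap. The classifier read the 21 nt around each A, and the order of the pentamers is not independent of it. The share of GGACT among sites was lower than the 22.9% (21.1 to 24.8) in long internal exons and close to the 19.0% (17.8 to 20.3) in the first 200 nt of the 3′ UTR.

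DRACH accounted for 2531 sites (87.6%, 86.4 to 88.8) and other pentamers for 358 (12.4%, 11.2 to 13.6). GGACG alone made up 194 of the latter, with a median score of 0.711. Of the 358 sites, 329 (91.9%) kept the C after the A, and 238 (66.5%) had CG there, which puts a G in place of the last base that DRACH allows. Among sites of long internal exons 91.0% (89.7 to 92.2) were at DRACH. The share outside DRACH was 11.5% (9.97 to 13.2) within 200 nt of the stop codon and 13.4% (11.7 to 15.2) farther away, with overlapping intervals.

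The reading frame was not an input of the classifier. Of the 2530 listed eligible motifs in transcripts with an annotated stop codon, 1484 (58.7%) had the A at the second position of a codon, 522 (20.6%) at the first and 524 (20.7%) at position 3. The codon holding the A was GAC, for aspartate, in 1245 cases (49.2%, 47.3 to 51.2), against 42.4% (41.4 to 43.3) of the eligible motifs, and it was ACT in 278, AAC in 239 and GAA in 193. Motifs were listed in 19.2% of cases with the A at position 1, 25.3% at position 2 and 28.3% at position 3. With gene and pentamer as strata none of these differences passed the threshold: the odds ratio of position 1 against the others was 1.14 (0.881 to 1.48; p = 0.320, n = 183 genes), that of position 2 was 0.925 (0.723 to 1.18; p = 0.533, n = 214 genes) and that of position 3 was 0.959 (0.702 to 1.31; p = 0.792, n = 150 genes). With strata of gene alone the values were 0.657 (p = 8.56e-11, n = 677 genes), 1.10 and 1.46 (p = 2.14e-07, n = 556 genes). Pentamers were unevenly spread over the frame: the 4 pentamers listed most often (GGACT and GAACT, then AGACT and then GGACA) made up 19.2% of motifs at position 1 and 31.4% and 31.6% at the other positions. Within GGACT the listed share was 60.3%, 64.6% and 60.3% at the 3 positions.

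**Figure D4:**
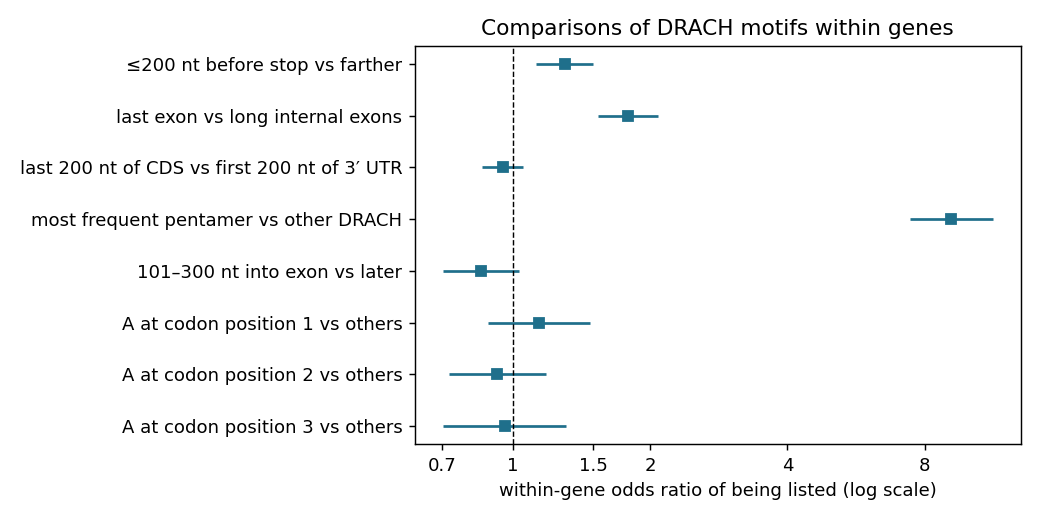
Odds ratios of being listed as a site between classes of DRACH motifs, computed within genes (squares; codon positions within gene and pentamer), with 95% intervals from a variance clustered by gene (x axis, log scale). The intervals of 3 of the 8 comparisons lie above 1: motifs within 200 nt of the stop codon (1.30), last against long internal exons (1.79) and the most frequent pentamer, GGACT, against other DRACH motifs (9.16). Motifs within 200 nt of the stop codon are also farther from the splice junction than those they are compared with.

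Prediction scores had a median of 0.732 (0.725 to 0.738, quartiles 0.637 and 0.818) and ran from 0.500025 to 0.981. Sites at DRACH had a median of 0.744 (0.736 to 0.751) and other sites 0.643 (0.628 to 0.670). By position, the median was 0.749 (0.739 to 0.757) within 200 nt of the stop codon, 0.715 (0.708 to 0.723) farther upstream, 0.721 in long internal exons and 0.811 in the first 200 nt of the 3′ UTR. Region and sequence entered the score, so these medians are a description. A score of at least 0.9 was reached by 155 sites, of which 113 were at GGACT or GAACT. Besides ZBTB48, NHERF1 and ASF1B, the highest scores were in SEMA4C (0.968, an AAACT site 313 nt before the stop codon), a semaphorin, and MRPL36 (0.967, GGACT, 77 nt), a mitochondrial ribosomal protein. The lowest were in LARP6 (0.500025, GGATT, 221 nt), an RNA-binding protein, SPRED2 (0.50006, GGACC, 419 nt), an inhibitor of RAS-ERK signalling, and IP6K1 (0.500223, GGACC, 419 nt), an inositol hexakisphosphate kinase.

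Sites were unevenly spread over genes. The median host gene held 2 sites, 472 genes (43.5%) held 1, and the 174 genes with at least 5 held 1290 sites (44.7%, 42.8 to 46.5). A 3′ UTR site was also listed in 761 host genes (70.2%, 67.4 to 72.9), another coding site in 445, and in 193 (17.8%) every listed site of the transcript belonged to the set. Neighbouring sites of a gene were a median of 69 nt apart (quartiles 28 and 154, 1805 pairs), and 139 pairs (7.70%) were at most 10 nt apart. Such close neighbours can share reads and overlap in the classifier's sequence window, and are not independent.

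The densest stretch of 200 nt was in CKAP4, which encodes a membrane protein of the endoplasmic reticulum and was chosen after its values were seen. It is printed to show how closely listed pentamers can follow each other. In 166 nt of CDS it held 8 sites at 257, 224, 215, 211, 161, 144, 134 and 92 nt before the stop codon (GRCh38, capitals mark the listed pentamers, of which the third and the fourth overlap by 1 base).
CKAP4, chr12:106239106-106239295, minus strand: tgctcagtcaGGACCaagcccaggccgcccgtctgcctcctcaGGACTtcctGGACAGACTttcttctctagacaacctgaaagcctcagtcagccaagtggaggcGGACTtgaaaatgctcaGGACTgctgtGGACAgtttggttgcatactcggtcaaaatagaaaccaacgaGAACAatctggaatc
In this order their scores were 0.757, 0.780, 0.719, 0.826, 0.804, 0.854, 0.824 and 0.703. All 8 were DRACH, and 3 were GGACT.

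PLEC held the most sites. This gene of plectin, a linker of the cytoskeleton, had 38 sites in 6216 nt of last-exon CDS (exon 32 of 32), between 290 and 5870 nt before the stop codon, with scores from 0.509 to 0.909. Of these, 12 were outside DRACH, and 26 of its 82 eligible motifs were listed (31.7%, 22.6 to 42.4). That interval includes the 24.2% over all eligible motifs. PLEC was picked for its number of sites, which favours a high listed share, so the comparison with 24.2% cannot show that PLEC differs.

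The other genes among the 10 with the most sites, which together held 166 (5.75%), encode proteins of varied roles, and their highest-scoring sites are shown for the 3 genes with the highest values.
INTS5, chr11:62649314-62649354, minus strand: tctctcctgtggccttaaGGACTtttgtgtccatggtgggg
AP5B1, chr11:65778188-65778228, minus strand: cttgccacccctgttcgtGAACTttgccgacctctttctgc
GEMIN4, chr17:745718-745758, minus strand: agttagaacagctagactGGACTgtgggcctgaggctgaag
INTS5, a subunit of the Integrator complex, had 14 sites, and 13 of its 37 eligible motifs were listed (35.1%, 21.8 to 51.2). AP5B1, a subunit of an adaptor complex of endosomal sorting, had 14 sites with 12 of 23 motifs listed (52.2%, 33.0 to 70.8). GEMIN4, part of the SMN complex that assembles spliceosomal ribonucleoproteins, had 14 sites with 12 of 64 motifs listed (18.8%, 11.1 to 29.97). The shown sites scored 0.951, 0.945 and 0.935 and lay 2312, 350 and 870 nt before the stop codon, so single high scores occurred far from it. The 155 sites with a score of at least 0.9 lay a median of 123 nt (89 to 165) before the stop codon, against 187.5 nt for all sites.

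The highest listed shares of these 10 genes were in SLC10A3, a solute carrier (16 sites, 10 of 14 motifs listed, 71.4%, 45.4 to 88.3), VASN, which encodes the membrane protein vasorin (16 sites, 12 of 19, 63.2%, 41.04 to 80.9), and SLC38A10, an amino acid transporter (15 sites, 13 of 21, 61.9%, 40.9 to 79.2). ZBTB22, a BTB zinc finger protein, and IL17RA, the receptor of interleukin 17, had 13 sites each with 46.4% and 46.2% of motifs listed. URGCP had 13 sites with 24.5% listed (13 of 53). All 10 genes were picked by their number of sites, which favours high listed shares. In SLC10A3, GEMIN4, ZBTB22 and IL17RA every listed site of the transcript was in last-exon CDS. VASN had 6 sites in the 3′ UTR as well. The map of the 10 genes shows sites along most of the coding stretch of each.

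**Figure D5:**
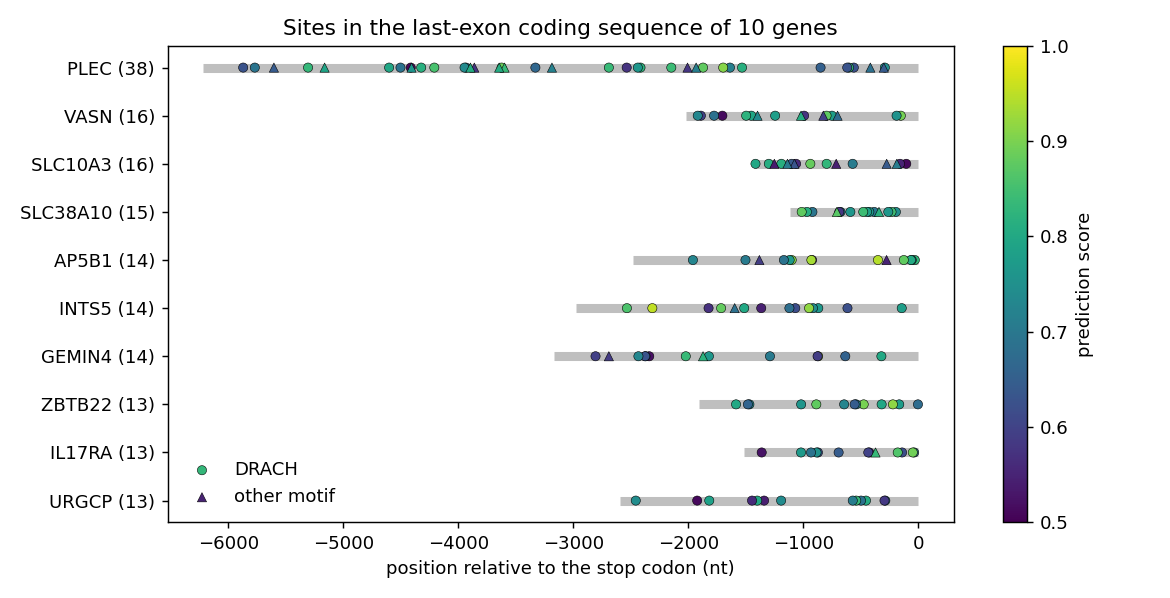
Sites in the last-exon coding sequence (grey bars) of the 10 genes with the most sites, by position relative to the stop codon (nt, x axis), with the number of sites beside the gene name; circles are DRACH sites, triangles other pentamers, and colour gives the prediction score. The sites of PLEC reach 5870 nt before the stop codon.

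The longest last-exon coding stretches after AHNAK and PLEC were in PPP1R26, a regulator of protein phosphatase 1 (3627 nt, 6 sites, 5 of 62 motifs listed), ZNF865 (3177 nt, 10 sites, 7 of 21) and ZNF628 (3170 nt, 12 sites, 9 of 25). Listed shares were 8.06% (3.49 to 17.5), 33.3% (17.2 to 54.6) and 36% (20.2 to 55.5), and of these 3 genes only PPP1R26 and ZNF628 had intervals that did not overlap.

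DDIT4, which encodes an inhibitor of mTORC1, and ABT1, a nuclear activator of basal transcription, were named because the study probed single adenosines of both genes with another assay in HEK293T, a human embryonic kidney line. That assay was not made on C643 RNA, and the scores below are predictions. DDIT4 had 4 sites in 491 nt, at 307 nt (chr10 position 72274879, GAACT, score 0.904), 254 nt (72274932, GGACG, 0.698), 152 nt (72275034, GGACT, 0.847) and 107 nt (72275079, CAACT, 0.617) before the stop codon. ABT1 had 4 sites in 378 nt, at 160 nt (chr6 position 26598483, GAACT, 0.915), 127 nt (26598516, GGACG, 0.708), 22 nt (26598621, GGACC, 0.749) and 5 nt (26598638, GGACT, 0.933). Both genes showed the order of the whole set, with GAACT and GGACT above the pentamers outside DRACH.

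Gene families were counted against the 56.2% of all genes with an eligible motif and at least 1 listed site in the transcript. That background is not matched for the length of last-exon CDS, with which the share of genes holding a site rose. The largest group was genes with symbols of zinc finger proteins, most of them transcription factors that carry their finger array in a single long last exon. Of 75 such genes 60 held a site (80%, 69.6 to 87.5), 228 sites in all, but 23.2% of their motifs were listed (20.5 to 26.1), against 24.2% over all genes, and their median last-exon CDS was 957 nt. The list was made by symbol, and among its hosts ZFP36L1 is an RNA-binding protein with fingers of another type. Kelch-like and KBTBD adaptors of CUL3 ubiquitin ligases held sites in 5 of 5 genes (11 sites; interval of the share from 56.6%), led by KLHL22 (4 sites) and KLHL21 (2 sites), while 22.9% (13.3 to 36.5) of their motifs were listed. Their median last-exon CDS was 384 nt, and the interval includes the 74.8% of all genes with 301 to 500 nt. Of the plexin, semaphorin, ephrin receptor and integrin genes 6 of 7 held sites (85.7%, 48.7 to 97.4, an interval that includes the background), all of them semaphorins. They held 17 sites, with 6 in SEMA4C and 4 in SEMA4F, and 31.4% (20.3 to 45.03) of the motifs of the list were listed.

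Among the other lists the intervals were wide. In all lists, intervals of motif shares treat the motifs of a gene as independent, so they do not cover the spread between genes. The list of bZIP and other immediate early genes held sites in 7 of 12 genes (58.3%, 32.0 to 80.7), with 9 in BHLHE40, a transcriptional repressor, and 8 in CSRNP1, a nuclear transcription factor. It was not limited to immediate early genes, and its hosts include the bZIP genes MAFK and ATF5. Homeobox genes held sites in 6 of 10, with 4 in SIX5 and 2 in SIX2. The listed shares of motifs were 24.5% (17.5 to 33.4) in the list of bZIP and other immediate early genes and 16.1% (9.004 to 27.2) in the homeobox genes. Feedback inhibitors of MAPK signalling held sites in 5 of 9, with 5 in SPRY4 and 3 in DUSP14, and 13.2% (7.12 to 23.3) of their motifs were listed, below the 24.2% over all eligible motifs. Chromatin regulators held sites in 5 of 10 genes, with 12 in ARID1A, a subunit of the BAF remodelling complex, and 2 in the acetyltransferase gene CREBBP. Of their motifs 13.7% (8.74 to 20.9) were listed, also below the value over all eligible motifs, but genes differed: 11 of 43 in ARID1A and 2 of 33 in CREBBP. Cytoskeletal linkers held sites in 4 of 7 genes, and 7.25% (5.23 to 9.96) of their motifs were listed, most of these motifs being those of AHNAK. Of the 9 genes of cytoplasmic ribosomal proteins with an eligible motif, RPL36AL alone held a site (0.612, outside DRACH), a share of 11.1% (1.99 to 43.5). That interval lay below 56.2%, but it includes the 30% of all genes with last-exon CDS of at most 200 nt. The median last-exon CDS of this list was 168 nt, and 0 of its 19 eligible motifs were listed. The KLF, SP and EGR factors had 2 genes with an eligible motif and 0 with a site. Of the m6A machinery list, ALKBH5, an m6A demethylase, was the 1 gene whose transcript held any listed site. Its 1 eligible motif was listed with a score of 0.850 at 53 nt before the stop codon. Motifs of the other genes of this list were not searched.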

How the data were processed

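The authors sequenced miCLIP2 libraries of poly(A)+ RNA from 3 biological replicates of C643 cells. They aligned reads with STAR 2.7.3a to GRCh38, removed duplicates with UMI-tools 1.0.0, kept uniquely mapping reads and handled reads holding a C-to-T transition separately (SAMtools 1.9 and bedtools 2.27.1 are also named in the submitters' processing notes). Peaks were called per replicate with PureCLIP, those found in at least 2 replicates were kept, and adenosines were classified by m6Aboost from 21 nt of sequence, transcript region, C-to-T transitions and relative signal strength. The deposited score is a fraction between 0 and 1 given by the authors' classifier. Depth per site and per sample is unknown, alignment and expression limit which sites can be listed, and rejected peaks and values per replicate were not analysed here.

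Sites were placed on Ensembl canonical transcripts of GENCODE release 44 on the same assembly, and sequences were read from GRCh38. DRACH motifs were searched on the transcript strand, and overlapping motifs were all kept. Motifs of transcripts with at least 1 listed site were compared by Mantel-Haenszel odds ratios with genes as strata and a variance clustered by gene (two-sided, threshold 0.05, Benjamini-Hochberg over 8). Such p-values measure the spread between genes, not between cultures. Transcripts enter through their own sites, so alternatives required a listed site elsewhere. Shares have Wilson intervals, which treat motifs of a gene as independent, and medians binomial order-statistic intervals, all at 95%. The software was matplotlib 3.10.9, pysam 0.24.0, pandas 2.3.3, scipy 1.17.1, numpy 2.4.6 and Python 3.11.15.

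The sites and gene lists were chosen with earlier results of these data known, and the excess near stop codons had been seen before. Genes and sites were named by rule: the 10 richest genes by number of sites, the 5 top and 3 bottom scores, the 5 longest last-exon CDS, the 3 sites nearest to and the 3 farthest from the stop codon, the 2 genes with the most sites of each of 11 lists, DDIT4 and ABT1, and the 5 most frequent pentamers inside and outside DRACH. CKAP4, the reach of 600 nt, the fits without PLEC or without AHNAK and, for last against internal exons, the requirement of a site elsewhere were chosen after seeing the data. Alternatives changed the score threshold, transcript, distance from the junction, isoforms, motif, strata, windows, host genes and sites per gene.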

Additional observations from a re-analysis of the deposited data

How the results depend on the processing

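Of 108 alternative values for 15 results, 80 stayed close to the reported ones: odds ratios kept their direction and side of the threshold, medians and shares stayed inside the reported interval, and counts stayed within 1.5 times (from 2140 to 3267 sites and from 843 to 1317 host genes). The others were these. For scores of at least 0.7 there were 1715 sites with a median distance to the stop codon of 161 nt, 92.3% at DRACH, 27% at GGACT and a median last-exon CDS of 417 nt in their genes; the odds ratio before against after the stop codon was 0.714 and that of codon position 2 was 1.07. With a minimum of 50 nt from the junction these were 164 nt and, before against after the stop codon, 0.773. With 200 nt they were 230.5 nt and 1.23, with 704 host genes and 17.7% at GGACT. With GGACT motifs alone the odds ratio near the stop codon was 2.04 (p = 0.0636, n = 28 genes), that of last against internal exons 1.498 (p = 0.191, n = 47 genes), that before against after the stop codon 1.59 and that of codon position 2 1.75, and the median distance was 143 nt; fewer genes had motifs of both classes. In host transcripts with a site outside last-exon CDS, the values were 0.760 before against after the stop codon, 0.767 early against later in the exon, and 347 nt of CDS. A listed 3′ UTR site meets this requirement, which favours a value below 1 before against after the stop codon. With 1 site per gene, the highest-scoring, the median distance was 84 nt, 91.97% were at DRACH, 30.5% at GGACT and the median score was 0.802. With strata of gene alone the odds ratios of codon positions 1, 2 and 3 were 0.657, 1.10 and 1.46. The causes were not tested.

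The odds ratio of last against internal exons ranged from 1.47 to 2.18, that near the stop codon from 1.18 to 2.04, and that of GGACT from 8.70 to 11.4. With a site outside last-exon CDS required, which a site in a compared internal exon also meets, last against internal exons gave 1.62. A reach of at most 600 nt before the stop codon, added after seeing the data, gave 1.23 for motifs near the stop codon. No replicate could be left out because the list is pooled. No paired analysis was possible because the cells form a single group and the list carries no replicate numbers. The list gives no depth, so motifs in weakly expressed genes cannot be told apart from unmodified ones.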

Other observations

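The sequence around listed motifs was richer in G and C than that around unlisted ones. Counted from 11 to 50 nt on either side, which leaves out the classifier's window, the median GC content was 63.75% at the 2530 listed eligible motifs (quartiles 57.5 and 67.5) and 60% at the 7913 unlisted ones (quartiles 53.75 and 66.25). No test was made, since motifs of a gene share their sequence.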
